A study of Mus musculus with 14 samples.

Results

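Primordial germ cells of mouse embryos, the precursors of eggs and sperm, were compared between embryonic day (E) 10.5 and E11.5. Of the 14 arrays of the series, 4 belong to this comparison, 2 titled E10.5 and 2 titled E11.5, and the labels call the 2 arrays of an age biological replicates. All 4 were made by 1 protocol. BDF1 females were crossed with males that carry the stella-EGFP transgene on a mixed B6/CBA background, and the strain of the samples is labelled as mixed. Genital ridges were digested in trypsin for 10 min, and germ cells were sorted on the green fluorescence of the reporter, so the sort selected cells in which the stella (Dppa3) reporter was on, and its purity is not stated. Embryos of these ages were not sexed. For each array 5 ng of total RNA, the equivalent of 500 cells, was amplified as cDNA with 12 cycles of the first PCR and hybridized to an Affymetrix expression array. The labels do not say how many embryos were pooled for a sample. Where further arrays are used below, they are cells of the same cross, sorted at E12.5 and E13.5 from each sex apart, and E9.5 cells. The E9.5 cells are of the C57BL/6 strain, from an earlier study, amplified with 22 cycles. They are used for levels and in the alternative fit of all 14 arrays.

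Around E10.5 germ cells leave the hindgut and its mesentery and move into the genital ridges, and by E11.5 most have settled there. In these days the cells lose DNA methylation over most of the genome, imprints included, and switch on a set of germline genes whose CpG-rich promoters are methylated and silent in the embryo and in somatic tissue. Dazl, Ddx4, Sycp3 and Mael are textbook members of that set, which prepares the cells for meiosis and for the defence against transposons. The series as a whole addresses how DNA methylation is erased at imprinted genes in these cells, and this pair of ages spans the arrival in the gonad.

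Levels are the deposited log2 signals, so a difference of 1 is a doubling of signal, and 18194 genes were tested, each by 1 probe set. A level under 4.72, the median of the whole table, is called dim, and near such levels a fold describes signal and need not equal a ratio of transcripts. The 4 arrays had medians of 4.68 to 4.72. The E10.5 arrays correlated with each other across genes with r = 0.961, below their highest r with an E11.5 array, 0.975 for replicate 1 and 0.972 for replicate 2, so neither E10.5 array was nearest to its own replicate. The E11.5 arrays correlated with r = 0.974. For E11.5 replicate 1, r was 0.975 with E10.5 replicate 1 and 0.978 with E12.5 male replicate 1, so it was not nearest to its own replicate either. The difference between the 3' and the 5' control probe sets of Gapdh, a measure of RNA integrity, was 0.44 and 1.38 at E10.5 and 1.18 and 2.53 at E11.5, and that of Actb lay between 2.70 and 3.24. Their part in the results was not tested. Markers of the labelled cell type read high in all 4 arrays. Dppa3 read 13.50 and 13.33 at E10.5 and 13.48 and 13.48 at E11.5. Since the sort used its reporter, its level is no separate check of the label. Pou5f1, a pluripotency factor that germ cells keep, read 13.07 and 13.02 against 12.90 and 12.97.

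The comparison gave few genes that differed beyond the spread between arrays. At an adjusted p under 0.05 in limma, fitted with the later ages of the same protocol, 8 genes were higher at E11.5, or 0.044% of the genes tested, and 6 were lower, or 0.033%. All 14 differed at least 2-fold. An unadjusted p under 0.05 was reached by 649 genes in the higher direction, or 3.57%, and by 638 in the lower, or 3.51%. As a description that uses no model, a gene is called separated here where both arrays of one age lie above both of the other, the means differ at least 2-fold and the higher mean lies above 6.36, the mean of the median gene. By this rule 68 genes were higher at E11.5, or 0.374%, and 103 were lower, or 0.566%, and 12 of the 14 called genes were among them. With 2 arrays against 2, an exact permutation test cannot give a two-sided p under 0.333, so the model's pooled spread carries the calls. Leaving out replicate 1 of E10.5 gave 38 called genes, 9 of them among the 14, and leaving out its replicate 2 gave 24, with 12 of the 14. Leaving out either E11.5 replicate 1 or E11.5 replicate 2 gave 1. Dazl was the gene called in all 4 of these fits. With the 4 arrays fitted alone, limma called 0 genes, with 737 at an unadjusted p under 0.05.

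**Figure D1:**
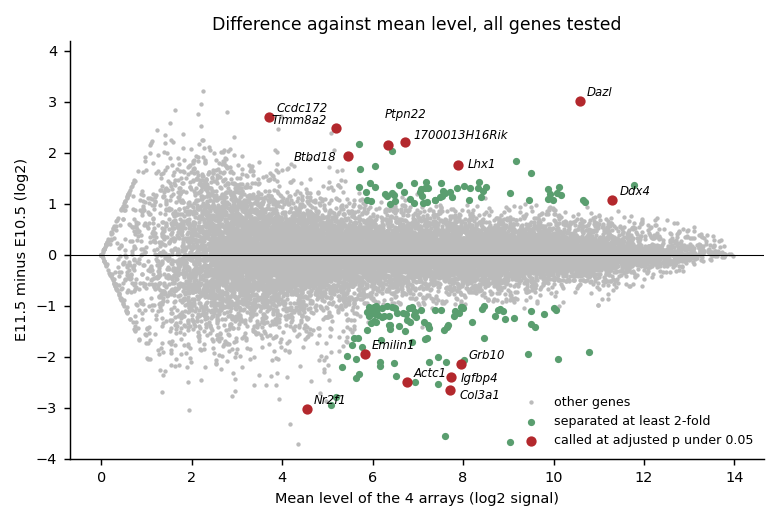
Each point is 1 of the 18194 genes, with its mean level over the 4 arrays (log2 signal) on the horizontal axis and the E11.5 minus E10.5 difference (log2) on the vertical axis; red points are the 14 called genes and green points the rest of the 171 separated genes. Dazl lies apart from all other genes of high level, with a difference of 3.01, and the called lower genes reach -3.03 for Nr2f1.

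Dazl, which binds messenger RNA and gives germ cells the competence for their sexual program, rose most clearly. It read 8.96 and 9.18 at E10.5 and 12.27 and 11.89 at E11.5, a rise of 3.01 on the log2 scale (SE 0.18, 8.06-fold, adjusted p = 0.000111). The 2 ages did not overlap, and the gap between them was larger than either pair's own difference. A second Dazl probe set, of lower signal, read 5.34 and 3.95 against 8.15 and 6.35. Ddx4, the RNA helicase also called Vasa and a mark of the germ line in all animals, was already high, at 10.71 and 10.81, and rose to 11.90 and 11.76 (1.07, SE 0.14, 2.10-fold, adjusted p = 0.0213). Its arrays lay close together at each age, and both E11.5 arrays stood above them.

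Of the other risen genes, 3 started at a dim level. Btbd18, a nuclear BTB-domain protein known for the transcription of piRNA precursors in male meiotic cells, read a dim 4.46 and 4.51 at E10.5 and 6.37 and 6.49 at E11.5 (rise 1.95, SE 0.20, adjusted p = 0.00878). Timm8a2, a germ-cell paralogue of a carrier chaperone of the mitochondrial intermembrane space, read a dim 3.88 and 4.02 against 6.55 and 6.34 (2.50, SE 0.27, adjusted p = 0.00878). Its broadly expressed paralogue Timm8a1 did not pass, at 11.17 and 11.56 against 10.78 and 10.91. The Timm8a2 probe set is of a type that can read related transcripts. No other member of a list of 19 genes of mitochondrial protein import and carriers was called. Ccdc172, a coiled-coil protein, stood at the bottom of the range of the array at E10.5, 2.15 and 2.59, and at 5.08 and 5.05 at E11.5 (2.70, SE 0.31, adjusted p = 0.00933). Its E11.5 mean stayed under the median gene, so it is called but not counted as separated.

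Lhx1, a LIM-homeodomain transcription factor of the early embryo and of the urogenital ducts, read 7.13 and 6.90 at E10.5 and 8.78 in both E11.5 arrays (rise 1.77, SE 0.19, adjusted p = 0.00878). A dim second probe set of Lhx1 read 4.03 and 3.89 against 4.46 and 4.50. Lhx1os, the antisense neighbour of Lhx1, read 5.27 and 3.96 against 6.81 and 6.75 (adjusted p = 0.0701), and which strand each probe set reads was not checked. Ptpn22, a tyrosine phosphatase best known from lymphocytes, read 5.05 and 5.49 against 7.47 and 7.39 (2.16, SE 0.24, adjusted p = 0.00878). 1700013H16Rik, an X-linked gene known here by its clone name, read 5.44 and 5.76 against 7.47 and 8.15 (2.21, SE 0.27, adjusted p = 0.018). In each of these genes both E11.5 arrays lay above both E10.5 arrays by more than the replicates of an age differed.

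**Figure D2:**
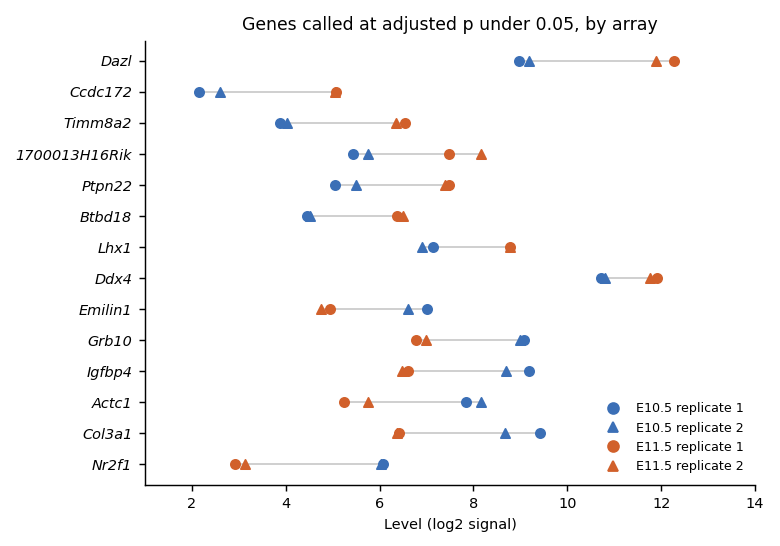
Levels (log2 signal, horizontal axis) of the 14 called genes in each of the 4 arrays, with E10.5 in blue and E11.5 in orange, replicate 1 as circles and replicate 2 as triangles; grey lines span the arrays of a gene. In every called gene the colours do not overlap, from Dazl at the top (8.96 and 9.18 against 12.27 and 11.89) to Nr2f1 at the bottom (6.07 and 6.04 against 2.92 and 3.13).

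All 8 called higher genes and all 6 called lower ones matched the RefSeq promoter table (GRCm38.p6), some with more than 1 start. The 250 bases before the start are shown for 4 genes, 2 that rose and 2 that fell, each with 1 window that lies wholly outside the annotated gene, so that promoters of high and low CpG content can be compared. They read 5′ to 3′ on the strand of the gene, with each CpG in capitals.
Dazl, chr17:50293621-50293870, minus strand: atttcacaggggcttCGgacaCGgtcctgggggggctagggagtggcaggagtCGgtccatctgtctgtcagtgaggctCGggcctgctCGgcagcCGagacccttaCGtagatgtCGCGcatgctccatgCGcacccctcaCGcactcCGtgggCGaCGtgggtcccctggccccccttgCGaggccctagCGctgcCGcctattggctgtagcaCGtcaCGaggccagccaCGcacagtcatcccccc
Lhx1, chr11:84525535-84525784, minus strand: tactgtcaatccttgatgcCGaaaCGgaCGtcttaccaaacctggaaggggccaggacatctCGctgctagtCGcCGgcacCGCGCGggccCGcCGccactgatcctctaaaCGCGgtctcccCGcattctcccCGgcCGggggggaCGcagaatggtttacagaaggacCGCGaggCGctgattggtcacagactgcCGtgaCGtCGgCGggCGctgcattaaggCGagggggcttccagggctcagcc
Col3a1, chr1:45311288-45311537, plus strand: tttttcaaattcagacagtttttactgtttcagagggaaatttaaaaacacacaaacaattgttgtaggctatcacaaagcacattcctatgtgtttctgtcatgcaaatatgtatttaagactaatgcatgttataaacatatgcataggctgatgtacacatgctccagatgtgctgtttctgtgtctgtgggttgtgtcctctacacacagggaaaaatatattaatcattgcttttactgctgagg
Actc1, chr2:114052876-114053125, minus strand: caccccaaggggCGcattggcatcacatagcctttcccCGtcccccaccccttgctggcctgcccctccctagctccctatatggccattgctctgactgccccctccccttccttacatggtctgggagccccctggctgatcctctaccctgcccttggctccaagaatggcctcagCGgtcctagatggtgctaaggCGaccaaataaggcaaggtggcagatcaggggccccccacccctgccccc
The window of Dazl holds 20 CpG and that of Lhx1 26, whereas that of Actc1 holds 4 and that of Col3a1 none. In the 4 shown, CpG number goes with direction through the choice of genes. It did not follow direction over the called genes: Ptpn22, which rose, has 5 and 2 CpG at its 2 listed starts, Timm8a2 has 7, Btbd18 15 and Ddx4 31. Ccdc172, which rose and also has 1 window outside its gene, has 9. Igfbp4, which fell, has 22, and Grb10 has 40 at 1 of its starts and 8 at the other. The median was 12 for the called higher genes and 8 for the called lower ones, against 17 over the 7491 of 9097 genes above the median gene that have a listed promoter.

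Among the genes that fell, 3 belong to connective tissue and muscle. Col3a1, a fibrillar collagen of mesenchyme, read 9.41 and 8.67 at E10.5 and 6.41 and 6.36 at E11.5, and fell by 2.66 on the log2 scale (SE 0.35, 6.30-fold, adjusted p = 0.0213). A second, dimmer Col3a1 probe set read 5.45 and 4.73 against 2.30 and 3.63. Emilin1, a glycoprotein of elastic fibres, read 7.0 and 6.60 against 4.94 and 4.76 (a difference of -1.95, SE 0.25, adjusted p = 0.021), while its dim second probe set read 3.53 and 3.52 against 3.94 and 2.95 and the call was lost with the mean of its probe sets (adjusted p = 0.561). Actc1, the actin of heart and early muscle, read 7.85 and 8.17 against 5.25 and 5.76 (-2.50, SE 0.35, adjusted p = 0.0288). The E11.5 arrays of all 3 genes lay below both E10.5 arrays, and Actc1 lost its call whichever of the 4 arrays was left out.

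Igfbp4, a secreted protein that binds insulin-like growth factors, read 9.18 and 8.69 at E10.5 and 6.60 and 6.48 at E11.5 (-2.40, SE 0.32, adjusted p = 0.0213). Of its 5 further probe sets, 4 with signal above the table median differed the same way, by -1.26 to -2.54. The call was kept without E10.5 replicate 2 and lost without each of the other 3 arrays, with all 14 arrays (adjusted p = 0.0903), without the intensity trend (0.0802) and with a floor on low values (0.068). Grb10, an imprinted adaptor protein that restrains growth, read 9.08 and 8.99 against 6.78 and 6.99 (-2.15, SE 0.23, 4.44-fold, adjusted p = 0.00878). Its other 2 probe sets were dim or near-dim and differed by 0.79 and -0.22, and with the mean of all 3 the adjusted p was 0.719. Nr2f1, an orphan nuclear receptor of mesenchyme and nerve (also called COUP-TFI), read 6.07 and 6.04 against a dim 2.92 and 3.13 (-3.03, SE 0.40, adjusted p = 0.0213). Its call was lost without any 1 of the 4 arrays, as for Actc1.

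The called genes differed in what came before and after. Dazl read 5.71 and 3.70 in the E9.5 cells and at least 13.00 in every array of E12.5 and E13.5. Ddx4 read 9.27 and 8.92 at E9.5 and between 12.62 and 12.89 at E13.5. Btbd18 and Ccdc172 were higher again in both sexes at E13.5, at 8.19 and above for Btbd18 and 7.78 and above for Ccdc172. Several of the risen genes differed in level between the sexes afterwards. 1700013H16Rik read 11.57 and 11.11 in E13.5 females and 6.64 and 6.30 in E13.5 males, below its E11.5 level. Lhx1 read 10.36 and 10.18 in E13.5 males and 7.37 and 7.27 in E13.5 females. Since the E11.5 samples were not sexed, their level may combine both sexes. Ptpn22 read 7.84 and 7.98 in E13.5 females, above both E11.5 arrays, and 6.62 and 6.69 in males, below them. Timm8a2 read 5.43 and 5.63 in E13.5 females, below both E11.5 arrays, and 6.17 and 6.86 in males. The sexes of Btbd18 and Ccdc172 did not overlap at E13.5 either, with females higher. No test between the sexes was made here. In E13.5 females the Y-linked Eif2s3y had a mean of 4.255 (SD 2.369) and Uba1y one of 6.515 (SD 2.044). Kdm5d, also Y-linked, had a mean of 1.6 (SD 0.226) there. Whether male cells were present in these arrays was not tested.

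Of the genes that fell, Actc1, Grb10, Igfbp4 and Nr2f1 had both E9.5 arrays above both E10.5 arrays, for example at 9.57 and 8.71 for Actc1 and 11.22 and 10.34 for Grb10. Col3a1 and Emilin1 overlapped between E9.5 and E10.5. Actc1 lay at 4.62 or below in all 8 later arrays. Nr2f1 was low at E12.5 in both sexes and read 6.46 and 5.80 in E13.5 females. Emilin1 also read higher in E13.5 females, at 6.31 and 6.17, than at E11.5. The E9.5 cells differ in strain, amplification and kit. They were not tested against another age, and they entered a fit only in the alternative with all 14 arrays.

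**Figure D3:**
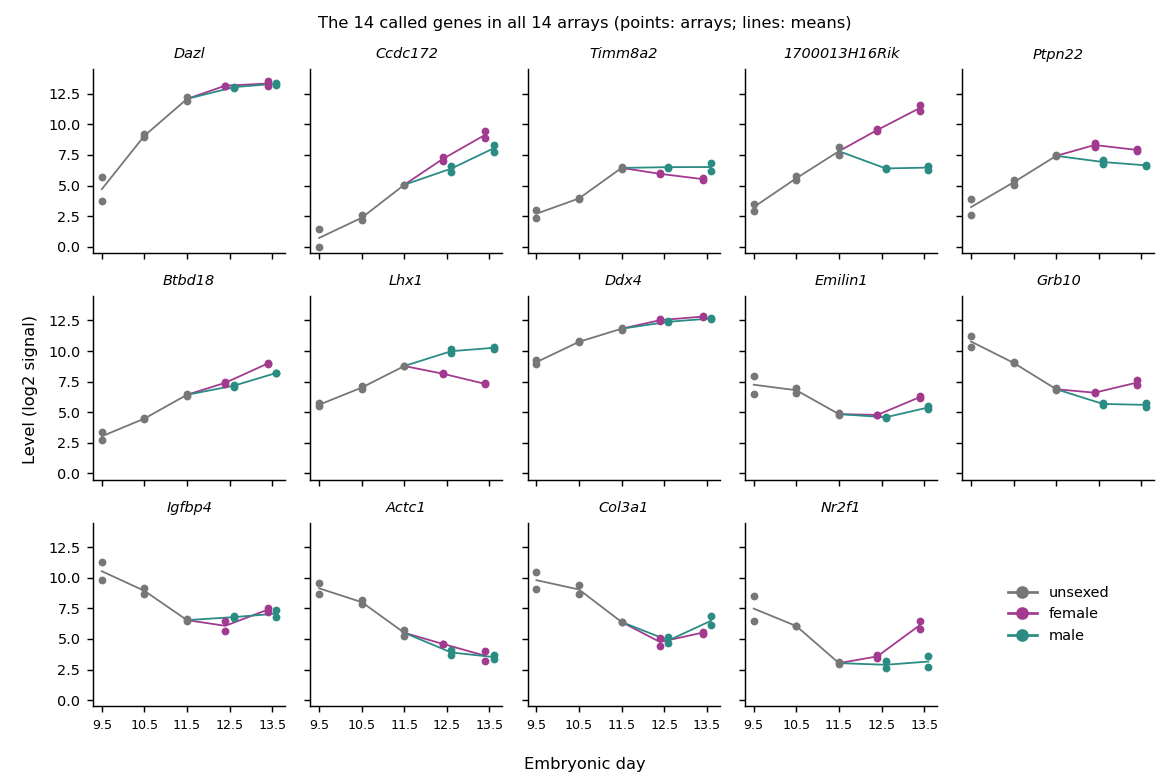
One panel per called gene shows the level (log2 signal, vertical axis) in all 14 arrays against embryonic day; points are arrays, lines join group means, and grey, purple and teal mark unsexed, female and male cells. Dazl reaches a plateau above 13 by E12.5, 1700013H16Rik and Lhx1 split by sex after E11.5 in opposite directions, and Actc1 is highest at E9.5.

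A list of 26 germline genes of the methylated-promoter class, known from earlier work to be silenced by promoter methylation, held 23 measured genes. All 23 had a higher mean at E11.5, with differences from 0.10 for Ddx25 to 3.01 for Dazl and a median of 1.07, against a median of 0.015 over all genes tested. Of them 2 were called, Dazl and Ddx4, 10 were separated and 13 reached an unadjusted p under 0.05, all in the higher direction, where the shares over all genes were 0.044%, 0.374% and 3.57%. The list was chosen with earlier results of these data known. The median was 0.52 without E10.5 replicate 1, whose levels of several members were the lowest, and between 0.98 and 1.28 without each of the other 3 arrays. The number of called members changed with the array left out, and so did the number called over all genes.

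Next to Dazl in size stood Mael, a nuage protein of the piRNA pathway, at 7.74 and 8.75 against 9.91 and 10.27 (1.85, SE 0.29, adjusted p = 0.0541). Mov10l1, the helicase that loads piRNA precursors, read 7.85 and 7.45 against 9.36 and 8.78 (1.42, SE 0.23, adjusted p = 0.0586). Both lay just outside the threshold although their ages did not overlap. Hormad1, a protein of the meiotic chromosome axis, read 8.20 and 8.67 against 9.46 and 9.82 (adjusted p = 0.0937). Sycp3, the lateral element of the synaptonemal complex, read 7.42 and 7.93 against 8.73 and 9.25 (adjusted p = 0.165). The separated members that remain are Tex101, Slc25a31, Asz1 and Stk31, with differences between 1.08 and 1.38 and adjusted p-values between 0.0937 and 0.157. At the other end Ddx25, Majin, Hsf2bp, Syce1, Tdrkh, Tex19.2 and Piwil2 differed by 0.43 or less. Of these, Ddx25, Majin, Tdrkh and Piwil2 (9.50 and 10.44 against 10.25 and 10.55) overlapped between ages, as did the dim Tdrd1. Brdt, a bromodomain protein of spermatogenesis, began at a low level, at 4.98 and 5.21 against 6.01 and 6.60 (1.21, SE 0.26, adjusted p = 0.169), and its ages did not overlap.

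**Figure D4:**
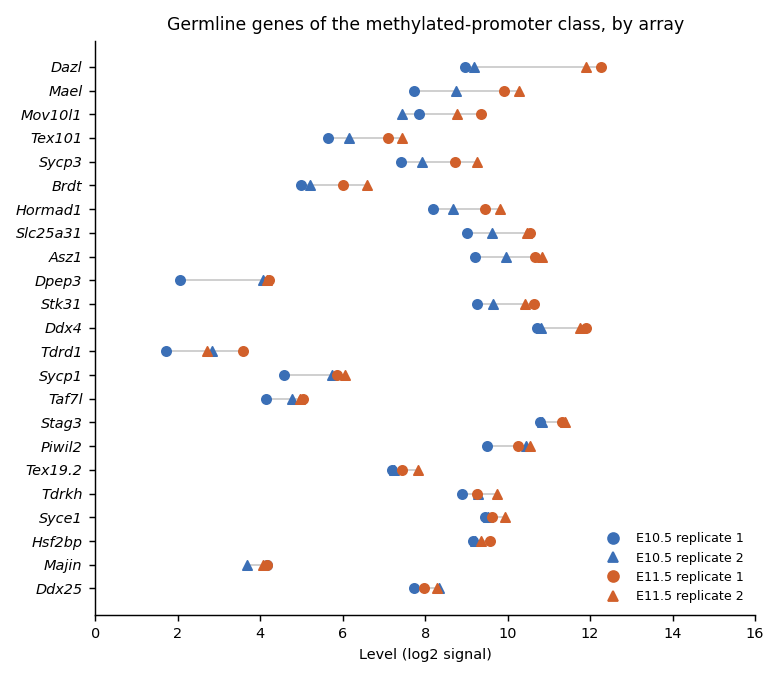
Levels (log2 signal, horizontal axis) of the 23 measured genes of the methylated-promoter class in each array, ordered by difference, with E10.5 in blue, E11.5 in orange, circles for replicate 1 and triangles for replicate 2. In the 10 separated genes and in Brdt the E11.5 points lie to the right with a clear gap. Ddx25, Majin, Tdrkh, Tdrd1 and Piwil2 overlap between ages.

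Of the 23 genes, 21 had a promoter in the RefSeq table. Their windows held a median of 17 CpG, the same as over the expressed genes given above, and 20 of the 21 had at least 10. The E-box CACGTG, a palindrome that reads the same on both strands, stood in the windows of 12 of the 21, or 57.14%, against 10.68% of the expressed genes and 6.02% of all 32851 promoter windows of the table. Over the 60 of 68 separated higher genes with a promoter, of which 10 of the 68 are of this class, the share was 20%. The letters GCGGGAA or, on the other strand, TTCCCGC, the core read by E2F factors, stood in 4 of the 21, or 19.05%, against 8.92% of the expressed genes and 3.82% of all windows. For both motifs, the shares of genes count a match at any listed start, whereas the share of all windows counts each window singly. These units are not alike. Of the 14 called genes only Ddx4 held either of the motifs, and it held both. A match is a stretch of letters, not a measured binding site, and methylation was not measured in these files.

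The meiosis list, with 26 measured genes outside that class, split into a few genes that stood higher and many that did not. None was called, 4 were separated and 7 reached an unadjusted p under 0.05, all of these higher at E11.5. Over all genes, 0.374% were separated and 3.57% reached that p in the higher direction. The median of the list was 0.22. That none was called did not hold without E10.5 replicate 1, where more genes were called over all genes as well. The median ranged from 0.13 without E11.5 replicate 2 to 0.465 without E10.5 replicate 2. Smc1b, the meiotic cohesin subunit, read 8.16 and 7.52 against 9.37 and 8.96 (1.32, SE 0.23, adjusted p = 0.0804). Tex12, of the central element of the synaptonemal complex, read 6.62 and 7.02 against 8.04 and 8.41 (adjusted p = 0.0937), and Sycp2, of its lateral element, 5.28 and 5.21 against 6.22 and 7.10 (adjusted p = 0.249). Zglp1, a GATA-like factor of the oogenic program, read 6.49 and 6.36 against 8.14 and 7.16 (adjusted p = 0.229). Stra8, the retinoic acid target that starts meiosis, read 3.58 and 6.03 against 3.67 and 4.45, so 1 E10.5 array lay above both E11.5 arrays. Spo11, which makes the meiotic DNA breaks, read 6.30 and 6.11 against 6.95 and 7.37 (adjusted p = 0.516), and Tex15 9.52 and 9.33 against 10.24 and 10.02 (adjusted p = 0.477). Rec8, Dmc1, Msh4 and Prdm9, by contrast, differed by -0.38 to 0.33 and did not pass.

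Of 15 measured genes of piRNA biogenesis and transposon silencing outside the methylated class, none was called. An unadjusted p under 0.05 was reached by 6 higher and 1 lower, against 3.57% and 3.51% of all genes. The median was 0.30, or 0.82 without E10.5 replicate 1. Gtsf1, a partner of PIWI proteins, was separated, at 6.29 and 5.85 against 7.40 and 7.20 (1.23, SE 0.24, adjusted p = 0.116). Morc1 was the member on the lower side, at 11.60 and 11.67 against 10.78 and 11.34 (adjusted p = 0.649). Of 15 measured RNA-binding and germ granule genes, none was called and Rbm46, which represses pluripotency and cell-cycle transcripts at meiotic entry, was separated, at 7.65 and 8.0 against 8.85 and 9.07 (adjusted p = 0.0937). The median of that list was 0.18. For Gtsf1 and Rbm46, the share separated and higher over all genes was 0.374%. Dnd1, an RNA-binding protein of germ cell survival, read 11.56 and 10.79 against 11.69 and 11.03, with replicates further apart than ages.

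Genes of germ cell identity gave no called difference, and all but Fut4, at 4.16 to 4.74, lay well above the median gene. Of 17 measured, none was called or separated and none reached an unadjusted p under 0.05, with differences from -0.56 to 0.24 and a median of -0.13. Kit, the receptor that germ cells need to migrate and survive, read 12.07 and 12.05 against 12.09 and 11.98. The 95% interval of its difference ran from -0.39 to 0.34, and that of Pou5f1 from -0.39 to 0.17, so for these genes a 2-fold change lay outside the interval. The Kit difference itself ran from -0.59 to 0.027 over the alternative settings that kept all 4 arrays. Of 19 measured pluripotency genes, 2 reached an unadjusted p under 0.05, both higher, against 3.57% of all genes, and the median was 0.12. The S-phase list of 24 genes had a median of -0.08 and the list of 22 genes of G2 and mitosis one of 0.01, and none of the 46 genes reached an unadjusted p under 0.05.

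Cell-cycle inhibitors and p53 targets, 18 measured, had a median of 0.27 with none called. Pmaip1, the proapoptotic BH3 protein also called Noxa, was the separated member, at 5.27 and 4.50 against 6.72 and 6.41 (1.68, SE 0.35, adjusted p = 0.136). The share separated and higher over all genes was 0.374%. Of 22 immediate early and heat shock genes, a sign of handling during digestion and sorting, none was called. An unadjusted p under 0.05 was reached by 1, lower, against 3.51% of all genes, and the median was -0.21.

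The enzymes that write, keep and oxidize DNA methylation, to which the series as a whole is directed, gave no call. Of 19 measured genes none reached an unadjusted p under 0.05 in either direction, where 3.57% and 3.51% of all genes did, and the median was 0.04. Dnmt1, the maintenance methyltransferase, read 12.23 and 11.62 against 12.26 and 11.67. Uhrf1, which brings Dnmt1 to hemimethylated DNA, read 6.59 and 4.06 against 5.55 and 3.53, so replicate 2 was lower by over 2 log2 units in both ages and the 95% interval of the difference spanned -2.44 to 0.87. Of the de novo enzymes, Dnmt3a read 8.14 and 8.18 against 8.06 and 7.78, Dnmt3b 6.08 and 5.25 against 6.08 and 4.31, and the cofactor Dnmt3l lay between 0.13 and 3.30, dim in all 4 arrays. Tet1, a dioxygenase that oxidizes 5-methylcytosine, read 10.96 and 10.12 against 11.11 and 10.10. Tet2 read 6.39 and 4.46 against 5.80 and 5.18, and Tet3 was dim. The intervals of Dnmt1 (-0.47 to 0.55) and Tet1 (-0.76 to 0.89) leave out a 2-fold difference, and those of Uhrf1, Dnmt3b and Tet2 do not. Without single arrays the median of the list ran from -0.24 to 0.285. That none reached an unadjusted p under 0.05 did not hold in every such fit. The 15 base excision repair genes likewise had none at an unadjusted p under 0.05 and a median of -0.08.

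Of 31 histone methylation and Polycomb genes, 1 reached an unadjusted p under 0.05 higher and 2 lower, where 3.57% and 3.51% of all genes did. Counts this small are near those shares, and none of the list was called (median -0.09). The higher one was Kdm1b, a histone H3K4 demethylase needed for imprints in oocytes, at 7.08 and 6.99 against 7.83 and 7.97 (0.86, SE 0.21, adjusted p = 0.263). The lower ones were Phf19, at 10.17 and 9.89 against 9.41 and 9.38, and Cbx2, at 10.94 and 10.98 against 10.46 and 10.64, both of Polycomb complexes, with adjusted p-values of 0.394 and 0.637.

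Imprinted genes are expressed from 1 parental copy. Among 23 measured paternally expressed genes none was called, 2 were separated and lower, 5 reached an unadjusted p under 0.05 lower and 1 higher, and the median was -0.23. Over all genes 0.566% were separated and lower, and 3.51% reached that p in the lower direction. That none of these 23 was called did not hold without E10.5 replicate 1, where more genes were called over all genes as well. Mest, a hydrolase-like protein of mesoderm, lay at the threshold, at 10.21 and 10.61 against 8.24 and 8.70 (-1.94, SE 0.29, adjusted p = 0.0503). Igf2, the fetal growth factor, read 9.60 and 7.30 against 7.16 and 5.71 (-2.02, SE 0.66, adjusted p = 0.508). Peg3, Ndn and Snrpn, by contrast, differed by -0.03 to -0.10. Among 27 measured maternally expressed genes Grb10 was called, 5 reached an unadjusted p under 0.05, all lower, and the median was -0.13, or 0.03 without E10.5 replicate 1. The 4 others of these were Osbpl5 (dim in every array), Cdkn1c, Gnas and Phlda2, with differences of -0.62 to -1.85 and adjusted p-values from 0.283 to 0.681. Allele of origin cannot be read from these arrays. Grb10, Mest and Igf2 are also transcribed in mesenchyme, whose marker signal was lower at E11.5 as given below, and the part of this in their difference was not tested.

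Receptors and ligands of migration gave few differences. Of 29 genes of migration, adhesion and guidance, none was called, and 2 were separated, both lower, against 0.566% of all genes. Nrp2, a receptor of semaphorins and VEGF, read 8.12 and 7.33 against 5.83 and 6.18 (-1.72, SE 0.36, adjusted p = 0.137). In the alternative settings that kept all 4 arrays, its difference was as small as -0.327. Pecam1, an adhesion protein of endothelium and of germ cells, read 10.46 and 9.91 against 9.82 and 7.83 (adjusted p = 0.854), with most of the gap in 1 E11.5 array. Cxcr4, the chemokine receptor that guides germ cells to the ridge, was dim, at 3.09 and 3.45 against 4.38 and 3.69. Its ligand Cxcl12, made by somatic cells of the ridge, read 6.52 and 6.32 against a dim 4.03 and 4.42 (-2.20, SE 0.43, adjusted p = 0.117). The Cxcl12 difference was as small as -0.852 in the alternative settings that kept all 4 arrays. The median of the list was -0.10.

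In the NODAL, BMP and TGF beta list of 24 genes, none was called and the separated members were the NODAL inhibitors and targets Lefty1, at 9.35 and 9.29 against 10.53 and 10.30 (adjusted p = 0.566), and Lefty2, at 8.88 and 9.60 against 10.70 and 10.35 (adjusted p = 0.835). Tgfbr3, a coreceptor of TGF beta, had the smallest p of the list in the other direction, at 5.73 and 5.79 against a dim 4.46 and 4.44 (-1.31, SE 0.25, adjusted p = 0.107). The E11.5 arrays of Lefty1 and Lefty2 lay above both E10.5 arrays, and the model also pools the SD of 1.14 and 2.14 that these genes had in E13.5 females (n = 2). The median of that list was -0.02. Among 25 genes of retinoic acid, FGF and WNT signalling, Axin2, a feedback target of WNT, was separated, at 7.32 and 6.54 against 7.92 and 8.21 (1.14, SE 0.44, adjusted p = 0.623). Its difference was as small as 0.378 in the alternative settings that kept all 4 arrays. The median of these 25 genes was -0.08. Of all genes, 0.374% were separated and higher, the direction of Lefty1, Lefty2 and Axin2. Of 31 Hox genes 4 reached an unadjusted p under 0.05 lower and 1 higher, against 3.51% and 3.57% of all genes. The Hox genes were dim as a group, with a median difference of -0.26.

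Energy metabolism held genes near the threshold but none past it. Ldha, which turns pyruvate into lactate, read 12.20 and 11.28 against 10.07 and 9.60 (-1.91, SE 0.29, 3.75-fold, adjusted p = 0.053). Tpi1, another enzyme of glycolysis, read 11.46 and 11.51 against 10.40 and 10.60 (-0.98, SE 0.17, adjusted p = 0.0785). Of 19 glycolysis genes 4 reached an unadjusted p under 0.05, all lower, against 3.51% of all genes, and none was called. The median was -0.06, or 0.10 without E10.5 replicate 1. That none was called did not hold without E10.5 replicate 2, where more genes were called over all genes as well. Of 25 oxidative phosphorylation genes none reached an unadjusted p under 0.05, although 21 had a higher mean at E11.5 and the median was 0.31. Leaving out replicate 1 of E10.5 gave a median of 0.54, and leaving out its replicate 2 one of -0.005. That none reached this p did not hold without replicate 1, where more genes reached it over all genes as well. The median of 0.31 thus rests on the 1 array, E10.5 replicate 2, in which small subunits such as Ndufa1 (11.75 and 9.01 against 11.34 and 10.55) were low.

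Markers of other cells that a sort of genital ridges can carry along were for the most part lower at E11.5, as a description of levels. In bulk samples, fewer cells of a type and less RNA per cell cannot be told apart. The summed linear signal of 7 measured blood and macrophage markers was 3418 and 2584 at E10.5 and 485.5 and 278.0 at E11.5. The embryonic globins carried most of that sum in each array, while the leukocyte markers Ptprc and Csf1r differed by -0.26 and -0.40. That of 5 mesenchyme markers was 928 and 704 against 233 and 232, and of 5 muscle markers 782 and 699 against 452 and 417. Col3a1 and Actc1, called above, are themselves among these, and 3 of the 5 muscle markers had a higher mean at E11.5. The sum of 5 endothelial markers was 569 and 437 against 361 and 369, and that of 7 gonadal somatic markers 254 and 231 against 192 and 178. Both E11.5 arrays lay below both E10.5 arrays in these 5 sums. The 6 measured markers of gut and mesonephros, Lhx1 among them, did not separate the ages (940.5 and 900.1 against 900.1 and 1107). Germ cell markers summed to 46236 and 36003 against 40197 and 35550, so the ages overlapped. None of the markers in these sums stood at 0 in any of the 4 arrays. In the fuller lists below, Mfap4 was at 0 in all 4 arrays, Cnn1 in 3 and Hba-a1 in 2.

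**Figure D5:**
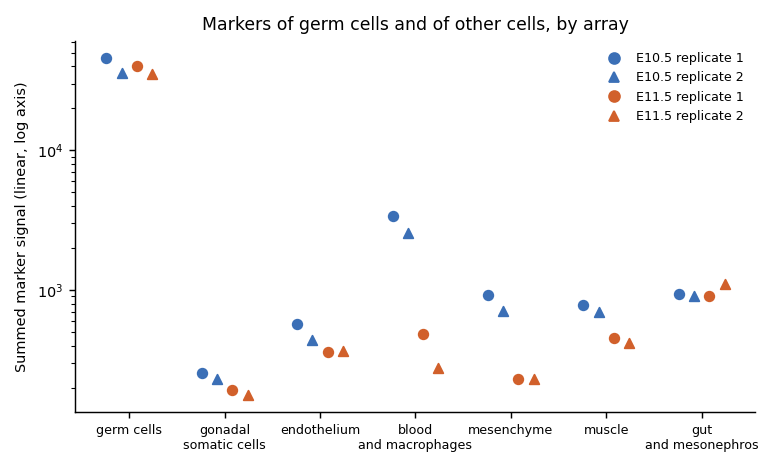
Summed linear signal of the measured markers of 7 kinds of cells in each of the 4 arrays (vertical log axis), with E10.5 in blue, E11.5 in orange, circles for replicate 1 and triangles for replicate 2. Blood markers lie at 3418 and 2584 against 485.5 and 278.0 and mesenchyme markers at 928 and 704 against 233 and 232, while the germ cell sums of the ages overlap.

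In the fuller lists the same cells showed in single genes. Of 23 mesenchyme and extracellular matrix genes 1 was called (Col3a1), 3 were separated and 10 reached an unadjusted p under 0.05, all lower, against 0.033%, 0.566% and 3.51% over all genes, with a median of -0.70. Without E10.5 replicate 1 the median was -0.21. Among the fits that left out 1 array, Col3a1 kept its call only in the fit without E10.5 replicate 2. Col4a1, of basement membranes, read 6.85 and 6.90 against 3.92 and 5.15 (-2.34, SE 0.42, adjusted p = 0.0912), and Col5a2, of fibrils, 7.21 and 6.91 against 5.54 and 5.84 (adjusted p = 0.221). Sparc, Fn1 and Vim, high in all arrays, differed by -0.28 to -0.50 and did not pass. Of 18 blood genes none was called, 3 were separated and 5 reached an unadjusted p under 0.05, all lower, with a median of -0.68 that was -1.08 without E10.5 replicate 1. The separated ones were the embryonic globins. Hbb-y read 11.02 and 10.72 against 8.08 and 6.30 (adjusted p = 0.827), Hba-x 9.73 and 9.03 against 6.46 and 5.18 (-3.56, SE 0.62, adjusted p = 0.076), and Hbb-bh1 8.51 and 7.85 against 5.18 and 6.18 (-2.50, SE 0.40, adjusted p = 0.0581). Hbb-y and Hba-x had the lowest differences among the separated genes. For Hbb-y the model also pools an SD of 3.882 in E12.5 females and of 3.995 in E13.5 males. The part of these cells in the difference of Igfbp4, Grb10, Emilin1 and Nr2f1 was not tested.

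Among 24 genes of gonadal somatic cells and coelomic epithelium, Nr2f1 was called and 6 reached an unadjusted p under 0.05, all lower, with a median of -0.38. Over all genes, 0.033% were called lower and 3.51% reached that p in the lower direction. For the further lists of this paragraph, 0.566% of all genes were separated and lower, 0.374% separated and higher, and 0.044% called higher. The defining genes of the gonadal soma were near or under the dim line. Nr5a1 read 4.68 and 4.23 against 4.12 and 3.94, Wt1 5.92 and 4.92 against 4.79 and 4.86, Gata4 5.01 and 5.18 against 4.68 and 5.17, and Lhx9 5.50 and 5.31 against 4.62 and 4.53, none of them called. Of 14 endothelial genes Emcn was separated, at 6.38 and 6.46 against 3.74 and 5.12 (adjusted p = 0.161), and 3 reached an unadjusted p under 0.05, all lower. The median was -0.29, or 0.067 without E10.5 replicate 1, and the defining gene Cdh5 read 6.44 and 4.96 against 5.60 and 4.4. Of 20 muscle genes Actc1 was called and 3 were separated, among them Myl9 (6.97 and 6.09 against 5.35 and 5.47) and Myh6 (6.67 and 6.58 against 5.45 and 5.13), while the median of -0.06 lay near that of all genes. Of 18 gut and mesonephros genes Lhx1 was called, higher, 3 reached an unadjusted p under 0.05 lower, and the median was -0.18. Of 17 neural genes Pax6 was the separated one, at 7.17 and 7.02 against 8.25 and 8.4 (1.23, SE 0.21, adjusted p = 0.0701). Its difference was -0.11 with the mean of all its probe sets, and the list's median was 0.06.

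Outside the lists, the rule for named genes added further members on both sides that did not pass. Hmga2, an architectural chromatin protein of growing embryonic cells, read 8.18 and 9.25 against 5.89 and 6.47 (-2.54, SE 0.38, adjusted p = 0.0503). Cd34, a sialomucin of blood progenitors and vessels, read 6.26 and 6.82 against 2.88 and 4.32, and Cpe, a carboxypeptidase of secretory granules, 6.26 and 6.94 against 3.30 and 4.30. Dab2, an endocytic adaptor of extraembryonic and epithelial cells, read 6.39 and 8.70 against 4.84 and 5.99, with the E10.5 replicates further apart than the nearest arrays of the 2 ages. Mfsd2a, Armcx2 and Slpi lay on the same side, with differences of -2.42, -2.18 and -2.38. On the higher side stood Cyct, the testis form of cytochrome c, at 9.22 and 8.19 against 10.70 and 9.91 (1.60, SE 0.38, adjusted p = 0.237), and Tcfl5, a testis bHLH factor, at 6.80 and 6.13 against 8.14 and 7.64. Kctd14 (5.50 and 5.33 against 8.64 and 6.26) and Olig1 (5.90 and 4.44 against 7.49 and 6.35) had E11.5 replicates or E10.5 replicates more than 1 log2 unit apart. Alternative settings that kept all 4 arrays gave differences as small as 0.205 for Kctd14, -0.852 for Dab2 and -1.278 for Cpe.

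The 4 unsexed samples all held male cells. Eif2s3y, on the Y chromosome, read 9.32 and 10.00 at E10.5 and 9.95 and 10.20 at E11.5, and Kdm5d read 7.36 and 5.13 against 6.76 and 6.44. Of the 7 measured genes of the sex check, none was called, and Uba1y, a Y-linked ubiquitin-activating enzyme of the male germ line, was separated, at 9.21 and 9.71 against 10.76 and 10.83 (1.34, SE 0.66, adjusted p = 0.775). The share of male cells in a sample is not known, and its part in the differences of X-linked and Y-linked genes was not tested. Of 12 measured Rhox and other X-linked germ cell genes none was called, and 3 reached an unadjusted p under 0.05, all higher, against 3.57% of all genes. The median was 0.41, or 0.01 without E10.5 replicate 2. Trap1a, an X-linked tumour rejection antigen of embryonic cells, was separated, at 10.29 and 9.96 against 11.43 and 10.97 (1.08, SE 0.22, adjusted p = 0.136). For Uba1y and Trap1a, the share separated and higher over all genes was 0.374%. X-linked genes made up 3.39% of the genes tested, 4 of the 68 separated higher genes and 10 of the 103 separated lower ones.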

How the data were processed

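Per the series' design text, the authors normalized all 14 arrays together, the E9.5 arrays of an earlier study among them. The deposited table gives 1 log2 signal per probe set; that it is log2 was inferred from its span of 0 to 14.04. Software: not given in the sources used here. Of 45101 probe sets, 34958 carry 1 gene symbol, 932 several and 9211 none (64 are controls), and 34754 had an Entrez identifier found in RefSeq. For each of 18194 genes the comparison used the probe set of highest mean, and 9012 genes had several.

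limma 3.58.1 in R 4.3.3 was fitted to the 12 arrays of E10.5 to E13.5 with 1 mean per group (6 residual degrees of freedom), moderated variances with an intensity trend, two-sided p-values and Benjamini-Hochberg adjustment over all genes. The script was tested on simulated data. The number of arrays limits the precision: the median standard error of genes above the median gene was 0.25. P-values set the difference between the ages against a spread within groups that is pooled over the 12 arrays. How separate the cell pools of the samples were is not stated.

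The comparison, the 31 gene lists (698 entries, 57 without a measured gene) and the tests were chosen with earlier results of these data known. Named genes are all called genes; up to 15 separated genes in each direction of largest difference with an unadjusted p under 0.05; up to 5 separated genes per list; and a set of germ cell, methylation, sex and somatic genes. Nanos3 of this last set was not measured here. Other list members and paralogues named were chosen after their values were seen. Promoters come from RefSeq (GRCm38.p6), and proteins were not used here. Alternatives were median centring, quantile normalization, the 4 arrays alone, all 14 arrays, no trend, array weights, a filter at the median gene, the mean of all probe sets, a floor at the 25th percentile, a replicate block, and each array left out.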

Additional observations from a re-analysis of the deposited data

How the results depend on the processing

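The count of called genes, 14, was 29 with quantile normalization, 27 with median centring, 31 with a floor at the 25th percentile, 9 with all 14 arrays, 9 among genes above the median gene, 1 with array weights and 0 with the 4 compared arrays alone, where fewer arrays estimate the spread. It was 11 without the intensity trend and 13 with the mean of all probe sets. All 14 were among the 29 and the 27, but 10 were among the 31 and 7 among the 9 of all 14 arrays. Calls were lost with all 14 arrays for Ccdc172, Col3a1, Dazl, Emilin1, Igfbp4, Nr2f1 and Ptpn22, and without the trend for 1700013H16Rik, Actc1, Col3a1, Ddx4 and Igfbp4. The floor lost Actc1, Ccdc172, Col3a1 and Igfbp4, the mean of probe sets lost Col3a1, Emilin1, Grb10 and Lhx1, and array weights lost all but Dazl. Leaving out 1 array gave 1 to 38 called and 319 to 835 separated genes. The wider range of the separated count follows from 1 array then standing for an age. Dazl had an adjusted p of 0.0513 with all 14 arrays and stayed called in the other settings on 11 arrays or more. Whether replicate numbers pair the samples is not stated. The deviations of same-numbered arrays at E10.5 and E11.5 correlated with r = 0.692 over genes above the median gene, from 2 numbers only. With a replicate block the fit of 12 arrays called 12 genes, all among the 14 (Igfbp4 and Nr2f1, each at an adjusted p of 0.0507, were lost), and the 4 arrays with a block, a setting added after the data were seen, called 0 (1314 at an unadjusted p under 0.05).

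Medians of gene lists that moved by more than the spread between replicates were, with the mean of all probe sets, -0.05 for G2 and mitosis, -0.27 for migration, adhesion and guidance receptors, -0.26 for glycolysis and -0.26 for gonadal somatic and coelomic epithelium. Among genes above the median gene they were -0.26 for maternally expressed imprinted, 0.88 for sex check, -0.41 for gonadal somatic and coelomic epithelium, -1.98 for blood and macrophage, 0.58 for neural and neural crest and 0.008 for immediate early and heat shock. With median centring they were 0.062 for G2 and mitosis and -0.33 for gonadal somatic and coelomic epithelium, and with the floor -0.32 for gonadal somatic and coelomic epithelium. Leaving out 1 array gave medians of -0.19 to 0.10 for germ cell identity, -0.21 to 0.37 for pluripotency network, 0.52 to 1.28 for germline genes of the methylated-promoter class, 0.13 to 0.47 for meiosis, 0.23 to 0.82 for piRNA and transposon silencing, 0.065 to 0.38 for RNA-binding and germ granule, -0.29 to 0.030 for maternally expressed imprinted, -0.29 to 0.30 for retinoic acid, FGF and WNT signalling. It gave 0.010 to 0.78 for Rhox and other X-linked germ cell genes, -0.37 to 0.10 for glycolysis, -0.005 to 0.54 for oxidative phosphorylation, 0.095 to 0.74 for sex check, -0.46 to -0.36 for gonadal somatic and coelomic epithelium, -0.82 to -0.21 for mesenchyme and extracellular matrix, -0.52 to 0.003 for muscle and -0.35 to -0.052 for immediate early and heat shock. A median also turned its sign without 1 array for endothelium (0.067), base excision repair (0.075), NODAL, BMP and TGF beta signalling (0.103), mitochondrial protein import (-0.08), and, within 0.01 of 0, G2 and mitosis and neural and neural crest.

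No called gene changed direction in any setting. Among the uncalled genes the sign turned for Dnmt3l -0.090 with a floor at the 25th percentile; for Dppa3 -0.016 with quantile normalization; for Gata4 0.33, Pax6 -0.11, Tet2 -0.42 with the mean of all probe sets; for Kit 0.027 with median centring. Leaving out 1 array turned the sign of differences near 0 or from spread replicates, which then ranged over -1.44 to 0.040 for Cdh5, -0.20 to 0.57 for Dnd1, -0.27 to 0.34 for Dnmt1, -1.35 to 0.41 for Dnmt3b, -0.94 to 2.23 for Dnmt3l, -0.020 to 0.15 for Dppa3, -0.41 to 0.075 for Gata4, -0.76 to 1.47 for Kdm5d, -0.080 to 0.030 for Kit, -1.97 to 0.48 for Stra8, -0.44 to 0.57 for Tet1, -0.90 to 1.03 for Tet2, -2.63 to 0.060 for Tet3, -2.05 to 0.48 for Uhrf1. The cause was not tested.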
